A study of Penaeus monodon with 38 samples.

Results

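This account sets the 4 eyestalk arrays of captive-reared black tiger shrimp (Penaeus monodon) against the 12 eyestalk arrays of wild-caught females, which together are 16 of the 38 single-colour arrays in the series. Arrays were chosen by the origin and tissue in their labels, and no measured value entered that choice. Captive females, grown out in ponds and then moved to a hatchery facility, gave 1 array each before ablation (removal of an eyestalk), after ablation with a previtellogenic ovary, at the vitellogenic stage and at the elongated cortical rod stage. Wild females, bought from hatchery suppliers, acclimated in tanks and fed squid and mussels, gave 2 arrays each before ablation, 2 h and 24 h after it, and at the vitellogenic, round cortical rod and elongated cortical rod stages. Stages without yolk in the ovary are grouped here as previtellogenic (2 captive and 6 wild arrays) and the others as vitellogenic (2 captive and 6 wild arrays). All females were adults and, apart from those sampled before ablation, had lost 1 eyestalk. The series' design text describes pools of 3 captive animals and of 4 and 5 wild animals per array for ovary, and does not separately describe pooling for eyestalk. The spread between arrays is therefore taken as a spread between pools and stages, not between single animals, and each captive stage rests on 1 array.

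The crustacean eyestalk carries the retina and optic ganglia, and within them the X-organ and sinus gland, a neurosecretory system that releases peptides of the crustacean hyperglycaemic hormone family. Members of that family raise blood glucose, restrain moulting and restrain yolk formation, which is why hatcheries remove an eyestalk to bring on ovarian maturation. Pigment dispersing hormones, a second eyestalk peptide family, move pigment in the eye and in chromatophores.

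The probes that carry the largest differences belong to library clones and contigs with no gene name in the files, so their oligonucleotide sequences are the means of identifying them. Numbers after a name are first and last base in the target sequence. The first 5 below are probes that were high in wild eyestalk before yolk formation, and the last 3 are the probes above the non-specific level that were called between captive and wild eyestalk over both phases.
F-D12 57-91: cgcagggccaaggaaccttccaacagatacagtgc
Contig[0332] 45-79: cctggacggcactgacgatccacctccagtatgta
Plate-B-D2 113-147: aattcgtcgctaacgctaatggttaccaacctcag
plateB-F4 49-83: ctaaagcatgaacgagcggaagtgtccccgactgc
Contig[0331] 33-67: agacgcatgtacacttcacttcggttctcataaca
Plate-C-B5 289-323: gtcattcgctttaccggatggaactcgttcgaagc
plateC-A1 45-79: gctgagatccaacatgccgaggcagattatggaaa
plateB-H1 307-341: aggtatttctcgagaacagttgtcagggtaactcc

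Captive and wild arrays differed in signal, and in part in the scan name of their raw files, whose meaning is not stated. Levels are log2 normalised intensities, and the non-specific level of an array is the 90th percentile of its 24 probes designed on 5 vertebrate species. Median raw spot intensity was 72.3 to 125 on captive arrays and 103 to 383 on wild arrays (two-sided exact permutation test over 1820 splits of the arrays, p = 0.00495, adjusted p = 0.0202 over 5 such measures). Of the 2240 probes, 24.9 ± 3.7% exceeded the non-specific level on captive arrays and 31.0 ± 4.0% on wild arrays (SD, n = 4 and 12, exact permutation p = 0.0209, adjusted p = 0.0261). Leaving out the captive preablation, postablation or vitellogenic array gave an exact permutation p of 0.0615, 0.0659 or 0.0527 for that share. The level itself averaged 8.43 ± 0.27 on captive arrays and 8.0 ± 0.25 on wild arrays (exact permutation p = 0.0121). Quantile normalisation gives every array the same distribution of values, so the share above the level is set by the level alone. Share and level are therefore a single result that rests on the vertebrate probes, and they do not count the shrimp transcripts detected. Raw file names place the 4 captive arrays on slide 8 under the scan name prawn2, and the wild arrays on slides 4 and 5 (scan name prawn1) and slide 6 (prawn2). The 4 wild arrays on slide 6 are the second replicates at 24 h and at the vitellogenic, round and elongated cortical rod stages. They had 24.4% to 28.4% of probes above the level, beside 22.2% to 30.2% on captive arrays. Their median raw spot intensity, 127 to 336, lay above that of every captive array. Each captive array correlated best with a wild array of that shared scan name, with r across probes of 0.937 to 0.969. In 3 of the 4 pairs the wild array also lay at the same position on its slide. The captive preablation array had r of 0.937 with the second 24 h replicate at its position, and of 0.784 and 0.855 with the wild preablation arrays. Between wild arrays alone, 581 probes (25.9%) differed between scan names prawn2 and prawn1. Origin and slide cannot be told apart, since each slide held females of 1 origin, so differences are also given against the 4 wild arrays of the shared scan name.

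**Figure D1:**
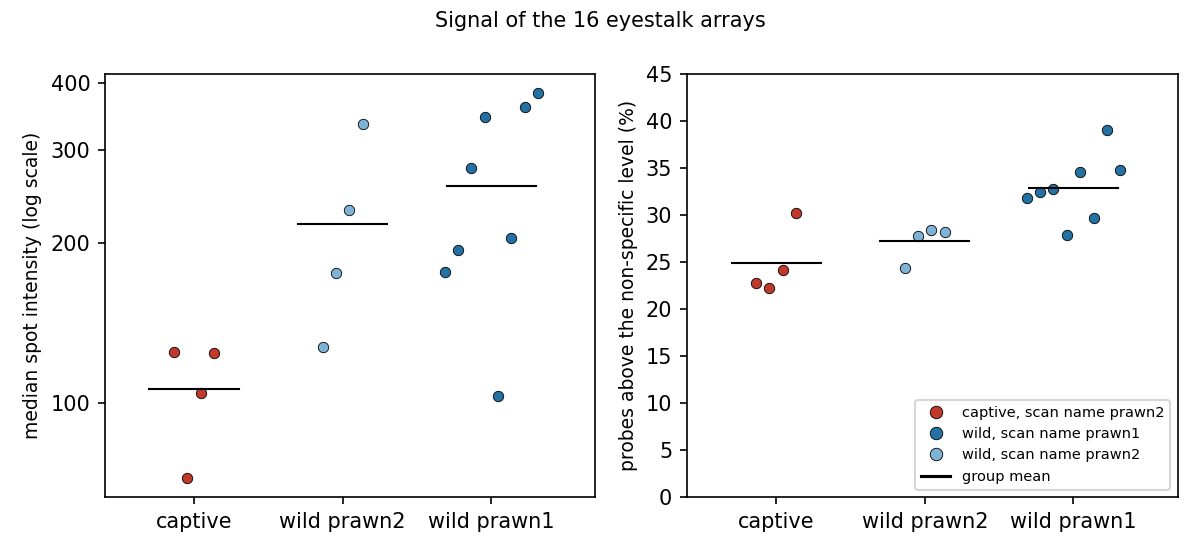
Median raw spot intensity on a log axis (left) and percent of 2240 probes above the non-specific level (right) for each of the 16 eyestalk arrays, split by origin and scan name, with group means as lines. Captive arrays lie at 72.3 to 125 in intensity and 22.2% to 30.2% in share, against 103 to 383 and 24.4% to 39.1% on wild arrays. After quantile normalisation the share is set by each array's non-specific level alone.

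The sharpest contrast lay before yolk formation, where a small set of probes with high signal in wild eyestalk stood at or under the non-specific level in captive eyestalk. This held for single probes, since another probe of Contig[0332] and another of Plate-B-D2 were above the level on every captive array. In the previtellogenic phase 16 probes (0.714% of 2240) were called by limma at a Benjamini-Hochberg adjusted p under 0.05, 10 higher in captive eyestalk (0.446%) and 6 lower (0.268%). Of the 6 lower, 4 belong to the clones F-D12 and Plate-B-D2 and to Contig[0332], whose signal in wild eyestalk falls as the ovary begins to store yolk. On all 16 called probes both captive arrays lay outside the range of the 6 wild previtellogenic arrays, as they did above it on 8.26% and below it on 8.48% of all 2240 probes. By the methods' t-test none of the 16 was called. With each array scaled to 1 median, 3 of the 16 were called, F-D12 (57-91), Contig[0332] (45-79) and Plate-B-D2 (113-147), and none of the higher ones.

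F-D12 (57-91) read 7.41 before ablation and 7.54 after it in captive previtellogenic eyestalk, against 11.54 at the lowest, 12.89 at the median and 14.55 at the highest of the 6 wild previtellogenic arrays. Both captive arrays were under the non-specific level, and every wild one was far above them. The difference was -5.57 ± 0.92 SE on the log2 scale, at least 21.8-fold lower in captive eyestalk (limma adjusted p = 0.0262). In whole eyestalk RNA, fewer cells of a type and less of a transcript per cell cannot be told apart. At the vitellogenic and elongated cortical rod stages the captive arrays read 7.00 and 9.92, and wild vitellogenic arrays ran from 6.99 to 9.18 with a median of 7.74. The captive elongated cortical rod array was thus the highest of the 4 captive arrays and above all wild vitellogenic arrays. The second F-D12 probe (105-144) read 6.19 and 6.17 in captive previtellogenic eyestalk, against 8.11, 10.50 and 12.18 at the lowest, median and highest wild previtellogenic array, at least 3.76-fold lower (limma adjusted p = 0.0344).

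Contig[0332] (45-79) read 7.43 and 7.38 in captive previtellogenic eyestalk, against 10.22, 12.46 and 14.47 at the lowest, median and highest wild previtellogenic array. It was lower by -4.89 ± 0.87 SE, at least 13.0-fold (limma adjusted p = 0.0262). As with F-D12, the groups did not overlap, and the captive elongated cortical rod array, at 8.91, was the highest captive array. Another probe of the contig (147-181) was well above the level on all 16 arrays, at 13.4 ± 0.77 in captive and 13.8 ± 1.55 in wild eyestalk (SD, n = 4 and 12), and its previtellogenic difference of -1.36 was not called (adjusted p = 0.375). On 4 of the 6 wild previtellogenic arrays it read 15.25, the highest value on the quantile-normalised scale, so a higher wild level could not have been read there.

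Plate-B-D2 (113-147) gave the smallest p of the previtellogenic comparison. It read 6.74 and 6.80 on captive arrays, against 9.43, 10.44 and 11.54 at the lowest, median and highest wild previtellogenic array. The captive values lay under the non-specific level and the difference was -3.73 ± 0.48 SE, at least 3.72-fold lower (limma adjusted p = 0.00513). A second probe (293-327) read 8.0 and 8.08 in captive and 9.26 to 13.14 in wild previtellogenic eyestalk, a difference of -2.76 that was not called (adjusted p = 0.141). The remaining probe (371-405) was above the level on all 16 arrays, with 12.11 and 10.87 on captive and 10.47 to 12.61 on wild previtellogenic arrays. Its ranges overlapped, at a difference of -0.07, so the clone's low captive signal was seen at 2 of its 3 probes.

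plateB-F4, represented by 3 overlapping oligonucleotides that share sequence, had the same order of groups but did not pass the test. Probe 49-83 read 6.66 and 6.44 in captive previtellogenic eyestalk, against 8.87, 11.07 and 13.33 at the lowest, median and highest wild array, a difference of -4.52 ± 1.01 SE (limma adjusted p = 0.0637). Its captive arrays also lay below every wild one. Contig[0314] (73-107) read 8.69 and 8.28 on captive and 9.85 to 13.11 on wild previtellogenic arrays, a difference of -3.32 (adjusted p = 0.0951). Another probe of that contig (116-150), above the level on all 16 arrays, read 9.67 and 8.83 on captive and 8.58 to 11.93 on wild arrays and overlapped.

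These 5 targets belong to the 14 probes of 8 targets that fell between the wild phases (0.625% of all probes were called there, all lower). Because wild values chose this set, its summary is a description and supports nothing. Both captive previtellogenic arrays lay below all 6 wild ones on 10 of the 14 probes, as they did on 8.48% of all 2240. The median captive minus wild difference over the 14 was -3.44 in the previtellogenic phase and 0.49 in the vitellogenic phase, beside 0.03 and -0.02 over all probes. Their median change between phases was 0.42 in captive eyestalk and -3.52 in wild eyestalk, beside -0.04 and 0.03 over all probes. No run of more than 12 bases was shared between probes of different targets in this set. On the 4 probes of the set called lower in captive previtellogenic eyestalk, both captive arrays lay below all 6 wild ones. The second 24 h replicate, which shared the captive scan name, is among those wild arrays, so lying below it is no separate check. That replicate read 12.27 for F-D12 (57-91), 12.66 for Contig[0332] (45-79) and 9.89 for Plate-B-D2 (113-147). F-D12 (105-144) read 8.11 on that wild array, under the array's non-specific level of 8.44.

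Other targets of the set did not follow the pattern. Contig[0331] (33-67) read 13.45 and 13.45 in captive previtellogenic eyestalk, against 11.97, 13.29 and 13.80 at the lowest, median and highest wild array. The captive arrays sat inside the wild range, at a difference of 0.30. At the vitellogenic and elongated cortical rod stages captive arrays read 11.12 and 8.69, and wild vitellogenic arrays 8.19 to 12.77. The change between phases was -3.55 ± 1.21 SE in captive and -3.44 ± 0.70 SE in wild eyestalk. Contig[0326] (241-275) likewise changed by -2.0 in captive and -1.91 in wild eyestalk, with captive arrays at 10.41 and 10.54 before yolk formation and 7.85 and 9.09 after. Its probe 88-121 changed by -2.37 in captive and -2.10 in wild eyestalk, but probe 289-323 by -0.34 and -1.45. The previtellogenic difference of probe 289-323 was -1.22 and was not called (limma adjusted p = 0.328). In captive eyestalk no probe was called between phases (limma, 191 at an unadjusted p under 0.05), so these captive changes are values only. plateC-D3 (57-90) was under the level on all 16 arrays and moved by -0.05 in captive and -0.50 in wild eyestalk.

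**Figure D2:**
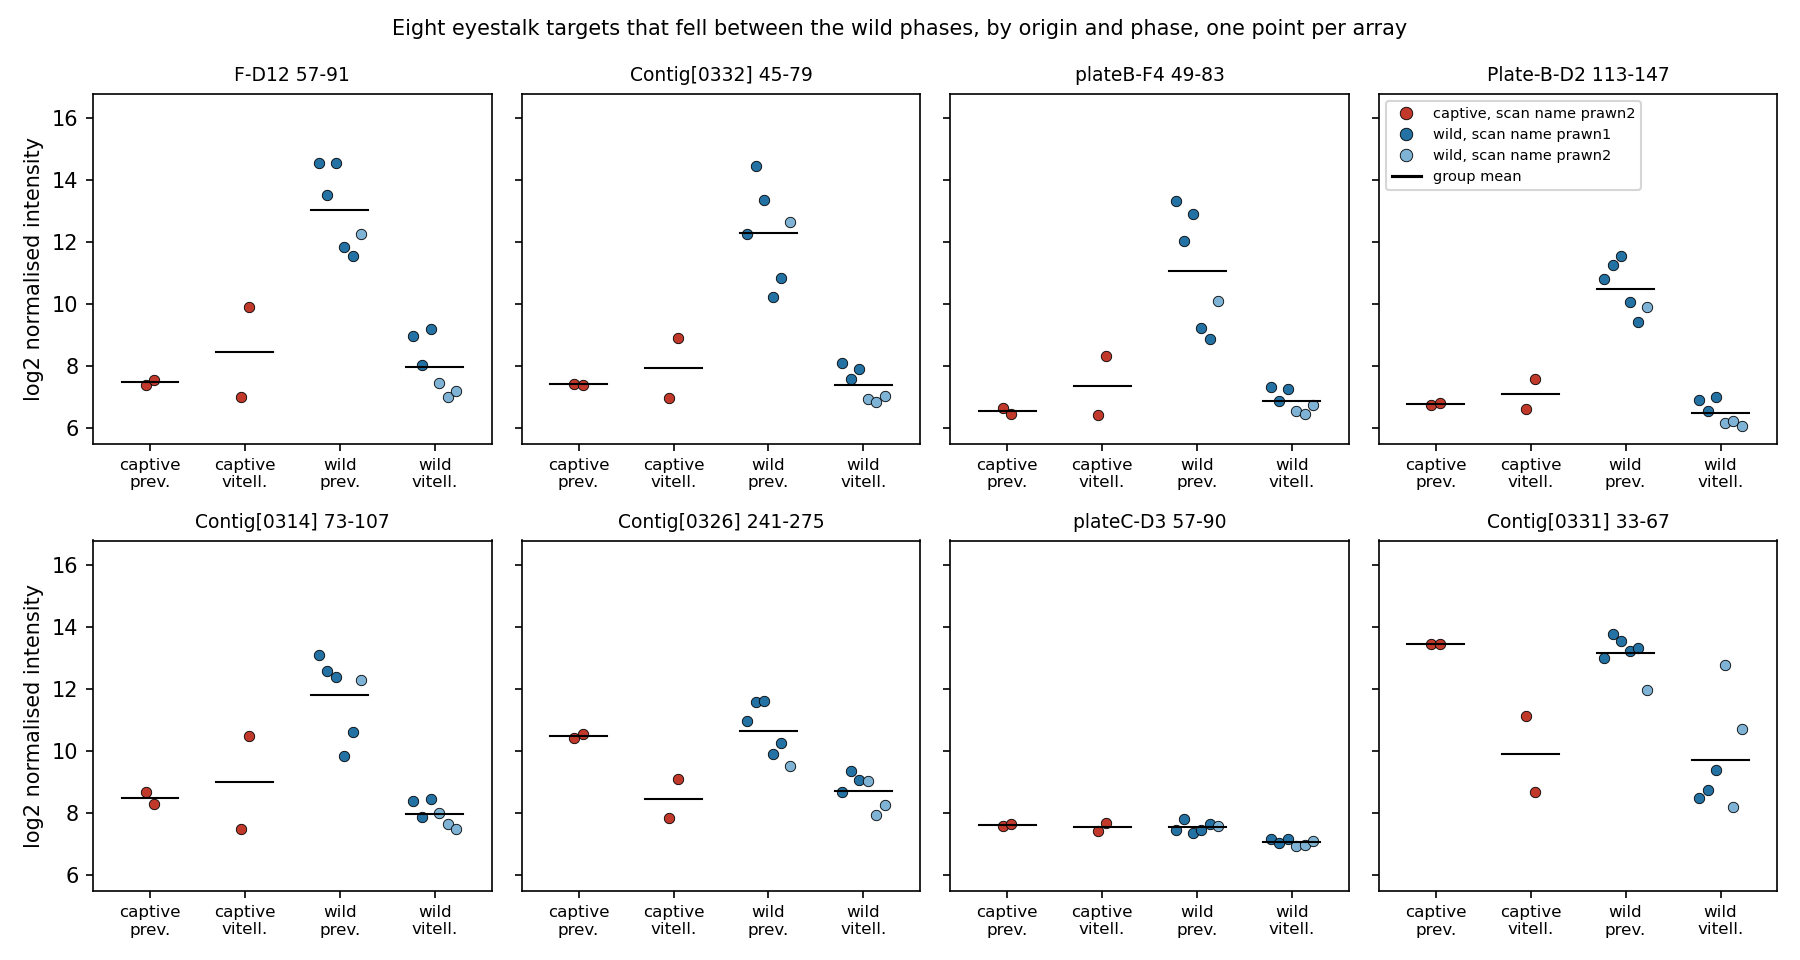
Log2 normalised intensity of 8 probes, 1 for each target that fell between the wild phases, 1 point per array, by origin and phase (previtellogenic, prev., and vitellogenic, vitell.), with colour for origin and scan name and a line at each group mean. In F-D12, Contig[0332], plateB-F4, Plate-B-D2 and Contig[0314] both captive previtellogenic arrays lie below all 6 wild previtellogenic arrays, while in Contig[0326], plateC-D3 and Contig[0331] they do not.

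Whether the difference between origins itself changed with phase was tested by the interaction over all probes, and 1 probe was called (0.0446%), with 142 at an unadjusted p under 0.05. This was Plate-B-D2 (113-147), where captive minus wild was -3.73 before and 0.62 after the start of yolk formation, a difference between phases of 4.34 ± 0.68 SE (limma adjusted p = 0.0429). It was called in 9 of 23 alternative settings, with values of 3.77 to 4.94. F-D12 (57-91) had an interaction of 6.06 ± 1.31 SE and Contig[0332] (45-79) of 5.44 ± 1.24 SE, both at an adjusted p of 0.363.

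Among the probes higher in captive previtellogenic eyestalk was farnesoic acid O-methyltransferase (1418-1452, designed on Metapenaeus ensis), an enzyme of the methyl farnesoate pathway, which makes the crustacean counterpart of insect juvenile hormone. It read 9.86 and 8.89 on captive arrays, against 7.42, 7.69 and 8.21 at the lowest, median and highest wild previtellogenic array. Both captive arrays lay above all wild ones, the preablation array furthest, at a difference of 1.62 ± 0.29 SE (limma adjusted p = 0.0262). In the vitellogenic phase captive arrays read 8.36 and 8.47, inside the wild range of 7.91 to 8.79. Its other 4 probes were not called. Cathepsin K of the fish Fundulus heteroclitus (182-215), a vertebrate probe counted among the 24 behind the non-specific level, moved alongside. It read 10.00 and 9.29 on captive and 7.51 to 8.87 on wild previtellogenic arrays, a difference of 1.65 ± 0.33 SE (limma adjusted p = 0.0357). Its part in the result for farnesoic acid O-methyltransferase was not tested.

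Unnamed probes made up most of the higher group. HPA-N-S01-0306-LF (355-388), a hepatopancreas library clone, read 12.73 and 12.56 on captive arrays, against 10.08, 10.48 and 11.62 at the lowest, median and highest wild previtellogenic array. The difference was 2.05 ± 0.36 SE (limma adjusted p = 0.0262), with no overlap in this phase. In the vitellogenic phase its captive values of 11.80 and 10.94 fell within the wild range of 10.71 to 11.89. The ovarian library clone OV-N-S01-0861-W (433-467) read 10.52 and 10.81 on captive and 8.88 to 9.84 on wild previtellogenic arrays, a difference of 1.53 ± 0.30 SE (limma adjusted p = 0.0344). plateA-F10 (489-523) read 9.98 and 10.09 on captive and 8.79 to 9.71 on wild previtellogenic arrays (0.99 ± 0.21 SE, adjusted p = 0.0489). In these 3 clones the wild array nearest the captive values was the second 24 h replicate, the single wild previtellogenic array with the captive scan name. Of all 16 calls, 7 were under the non-specific level on every array. Without that 24 h array, 195 probes were called in this phase, 147 higher and 48 lower. Without the first 2 h replicate or the first 24 h replicate 1 probe was called, and without the second round cortical rod replicate 8. Leaving out the captive preablation or postablation array left 1 captive array in this phase, and most of the 16 were then not called. With slide as a random block 1 probe was called, Plate-B-D2 (113-147).

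In the vitellogenic phase no probe was called between captive and wild eyestalk (limma, 199 of 2240 at an unadjusted p under 0.05, smallest adjusted p 0.263). The methods' t-test with Benjamini-Hochberg adjustment also called 0 probes there. Without the captive vitellogenic array 2 probes were called. plateB-H1 (307-341), described next, had its larger difference in this phase, at -2.83 beside -1.60 in the previtellogenic phase, with neither called.

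Over both phases, with phase as a covariate, 13 probes were called between captive and wild eyestalk (0.58% of 2240, with 422 at an unadjusted p under 0.05), 8 higher in captive eyestalk (0.357%) and 5 lower (0.223%). Of the 13, 10 were under the non-specific level on all 16 arrays, a share of 76.9% beside 52.8% of all probes, and 10 differed by less than 1 log2 unit. The other 3 were above the level on all captive or all wild arrays, and no target had more than 1 called probe. On 9 of the 13 the captive and wild ranges did not overlap, 6 with captive arrays all higher and 3 with captive arrays all lower, as on 16 (0.714%) and 21 (0.938%) of all probes. With slide as a random block, or with each array scaled to 1 median in place of quantile normalisation, none of the 13 was called (163 and 410 probes at an unadjusted p under 0.05). Without the captive vitellogenic array no probe was called, and without any other single array 1 to 25 were. On 11 of the 13, the wild arrays of scan name prawn2 differed from those of prawn1 in the direction in which captive differed from wild. The share of all probes that did so is not given here. Against the wild arrays of prawn2 alone, all 13 kept their sign, as did 1468 of all 2240 probes. Of the 13, 12 had an unadjusted limma p under 0.05 there, as did 393 of all probes. Those arrays also entered the comparison that chose the 13, so this is no separate support.

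**Figure D3:**
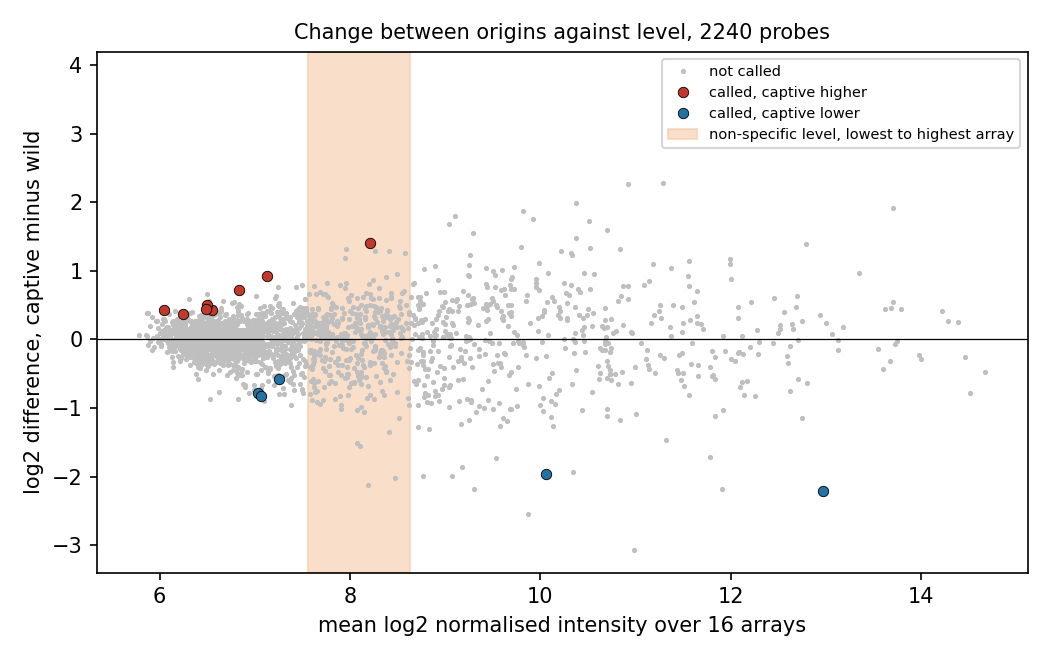
Log2 difference between captive and wild eyestalk against mean log2 normalised intensity over 16 arrays for each of 2240 probes, with the 8 probes called higher in red and the 5 called lower in blue. The shaded band spans the non-specific level over arrays, and 10 of the 13 called probes lie to its left.

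Plate-C-B5 (289-323), a clone without a gene name, was the probe higher in captive eyestalk that rose above the non-specific level. It read 9.47 before ablation, 9.25 after it, 9.62 at the vitellogenic and 8.70 at the elongated cortical rod stage, against 7.26, 7.93 and 8.80 at the lowest, median and highest of the 12 wild arrays. The ranges met only at their edge, where the captive elongated cortical rod array fell below the first wild preablation array. Captive eyestalk averaged 9.26 ± 0.40 and wild eyestalk 7.86 ± 0.45 (SD, n = 4 and 12), a difference of 1.40 ± 0.25 SE or 2.64-fold (limma adjusted p = 0.0396), and the probe was above the level on 4 of 4 captive and 4 of 12 wild arrays. Its other probe (129-163) read 9.18, 8.91, 9.65 and 9.18 on captive arrays in the same order, against 7.17, 7.69 and 9.43 at the lowest, median and highest wild array. That difference of 1.29 was not called over 16 arrays (adjusted p = 0.092). Against the 4 wild arrays of the shared scan name it was 1.61 ± 0.14 SE and called (limma adjusted p = 0.0247), and that of probe 289-323 was 1.20.

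plateC-A1 (45-79) was lower in captive eyestalk. Captive arrays read 8.69, 7.92, 8.72 and 9.04 from preablation to the elongated cortical rod stage, against 8.99, 10.78 and 11.44 at the lowest, median and highest wild array. Only the captive elongated cortical rod array reached into the wild range, just above the second wild vitellogenic replicate. The difference was -1.96 ± 0.39 SE, 3.89-fold lower (limma adjusted p = 0.0399), and -1.50 against the wild arrays of the shared scan name. Its other probes pointed the same way without a call, 177-211 with -0.82 (adjusted p = 0.0854) and 138-171 with -1.86 (adjusted p = 0.109).

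plateB-H1 (307-341) had the largest fold among the 13, 4.65-fold lower in captive eyestalk. Captive arrays read 12.52, 11.37, 10.20 and 11.14 in stage order, against 11.86, 13.85 and 14.36 at the lowest, median and highest wild array. The wild arrays themselves split by scan name, with those of prawn2 at 11.86 to 13.01 and those of prawn1 at 13.66 to 14.36. The difference was -2.22 ± 0.46 SE over all wild arrays (limma adjusted p = 0.044) and -1.24 against those of the shared scan name, where the captive preablation array overlapped. A second probe (357-391) had -2.18 (adjusted p = 0.087), and the third (61-95) was under the level on all arrays with 0.12. The opening bases of probe 61-95 are the reverse complement of those of probe 307-341, so over that stretch these probes match opposite strands.

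**Figure D4:**
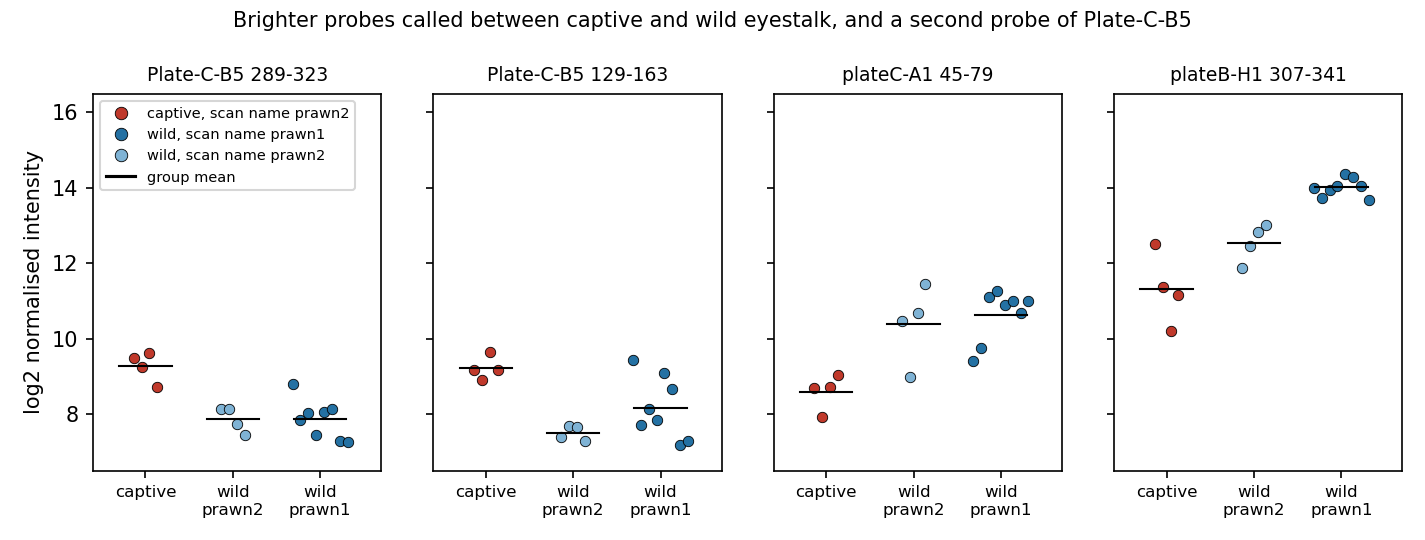
Log2 normalised intensity of the 3 called probes above the non-specific level and of a second probe of Plate-C-B5, 1 point per array, for captive arrays, wild arrays of the shared scan name prawn2 and wild arrays of prawn1, with group means as lines. The plateB-H1 panel shows wild prawn2 arrays at 11.86 to 13.01 and captive arrays at 10.20 to 12.52, both below wild prawn1 arrays.

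The 2 called probes with gene names were dim. Vitellogenesis inhibiting hormone (53-87, designed on the lobster Homarus gammarus), a sinus gland peptide that in lobsters restrains yolk formation, read 7.07, 6.79, 6.85 and 6.80 on captive arrays, against 6.20, 6.47 and 6.59 at the lowest, median and highest wild array. The groups did not overlap, but all 16 values were under the non-specific level and the difference was 0.44 ± 0.08 SE (limma adjusted p = 0.0399). The other 4 probes of that hormone were not called, and the one above the level on most arrays (339-373) had a difference of 0.21. Cathepsin B-like proteinase (439-473), a lysosomal protease, read 6.21, 6.25, 6.42 and 6.59 on captive and 5.69 to 6.12 on wild arrays, again all under the level (0.43 ± 0.09 SE, limma adjusted p = 0.0399). Its probes 553-587 and 612-646 had -0.12 and 0.10. The 8 other dim calls were unnamed, from A-A7 (79-117, -0.82 ± 0.12 SE, limma adjusted p = 0.00956) and B-F6 (39-74, -0.77) to HPA-N-S01-0723-LF (353-387, 0.92). Within clone E-C4 the called probe (355-389) had 0.45 and its partner (113-150) -0.33.

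Measured against the 4 wild arrays of the shared scan name alone, 3 probes were called (0.134%), all higher in captive eyestalk, with 393 at an unadjusted p under 0.05. Besides Plate-C-B5 (129-163) these were OV-N-S01-0186-W and E-B6. OV-N-S01-0186-W (51-84) read 10.51, 10.43, 10.40 and 10.47 on captive arrays, against 8.48 to 9.25 on the wild arrays of that scan name and 7.46 to 10.67 on all 12. The captive arrays were nearly level across stages and above all 4 of these wild arrays, by 1.39 ± 0.15 SE (limma adjusted p = 0.0325). E-B6 (68-102) read 14.36, 14.27, 14.79 and 14.64 on captive arrays, against 13.61 to 14.06 on those wild arrays (0.86, limma adjusted p = 0.0325), with overlap over all 12 wild arrays. With array position as a block in place of the phase term, a setting chosen after seeing the data, 35 probes were called against these wild arrays (1.56%), 21 higher in captive eyestalk (0.938%) and 14 lower (0.625%).

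The hormones for which the eyestalk is known gave no difference over both phases that passed the test on any probe above the non-specific level. Among 73 probes of sinus gland peptides, 30 differences were above 0 and 43 below, with a median of -0.04 beside 0.01 over all probes. Called were 1 higher (the dim lobster probe above) and 0 lower. Of the 73 probes, 38 exceeded the level on at least 1 array, as did 1058 of all 2240 probes and 5 of the 24 vertebrate ones. The mean level of the list ran from 7.34 to 7.70 over captive and from 7.25 to 8.02 over wild arrays. PmSGP-II precursor (498-532), a hyperglycaemic hormone type precursor of this species, read 8.37, 7.36, 7.39 and 7.50 on captive arrays, against 7.71, 8.90 and 10.14 at the lowest, median and highest wild array. Captive values lay at the low end, at -1.14 ± 0.40 SE (adjusted p = 0.164), yet other probes of the same precursor had -0.04 (312-345) and 0.02 (43-77). PmSGP-III precursor gave -0.93 (484-519) and 0.13 (80-114), and hyperglycemic hormone 2 (CHH2, 112-145) -0.87, none called.

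Pem-SGP-C1 precursor (123-157) came nearest to a call among named probes above the level on all 16 arrays. It read 9.59, 9.25, 8.86 and 8.99 on captive arrays, against 8.26, 8.52 and 9.24 at the lowest, median and highest wild array (0.62 ± 0.14 SE, adjusted p = 0.065). The captive vitellogenic and elongated cortical rod arrays were inside the wild range. It was called in 4 of 33 alternative settings, with a smallest adjusted p of 0.0202 without the second wild 24 h replicate. Mandibular organ inhibiting hormone (883-917, designed on the crab Libinia emarginata), which in crabs restrains methyl farnesoate synthesis, read 12.04, 11.79, 10.18 and 10.25 on captive arrays, against 9.31, 9.96 and 12.56 at the lowest, median and highest wild array. Its difference was 0.73 over all wild arrays and -0.79 against those of the shared scan name, neither called. The 27 named probes above the level on all 16 arrays had a median difference of 0.31, with 19 above 0, 8 below and 0 called (3 at an unadjusted p under 0.05).

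Pigment dispersing hormones had 15 probes, 5 above 0 and 10 below, with a median of -0.15 and 0 called. Pigment-dispersing hormone 3 read opposite ways at its probes, with -0.87 ± 0.30 SE at 176-209 and 0.65 ± 0.42 SE at 250-284. At 250-284 the captive arrays read 12.38, 10.65, 9.88 and 10.23, against 9.29, 9.99 and 11.67 at the lowest, median and highest wild array, so the captive preablation array was the highest of all 16. Arrestin, which ends light signalling in photoreceptors, had 9 probes with a median of 0.37, 7 above 0, 2 below and 0 called. Probe 561-595 read 10.10, 8.86, 9.34 and 8.77 on captive and 7.17 to 10.98 on wild arrays. Serotonin, which in crustaceans promotes release of eyestalk hormones, was covered by 13 probes of its receptors and of Phenylalanine / tryptophan hydroxylase, with a median of 0.00 and 0 called. The hydroxylase (223-257) read 9.65, 10.29, 9.99 and 9.58 on captive and 9.10 to 11.44 on wild arrays, at -0.24 over all wild arrays and -1.07 against the shared scan name.

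**Figure D5:**
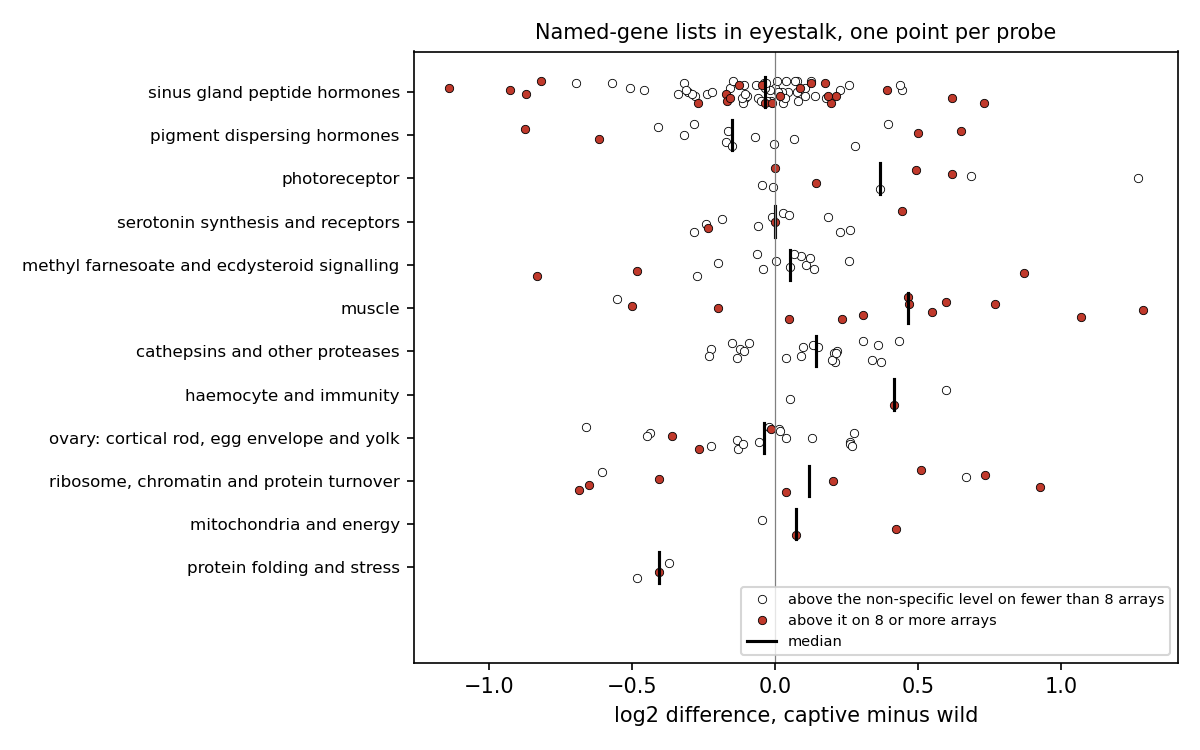
Log2 difference between captive and wild eyestalk for each probe of 12 lists of named genes, filled where the probe was above the non-specific level on 8 or more arrays, with the list median as a bar. Sinus gland peptides centre on -0.04 and muscle genes on 0.47, and the 2 called probes (0.43 and 0.44) are both open points.

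No probe was called over both phases in the lists for muscle, blood cells and ovary. Muscle genes, whose source within the eyestalk was not measured, had 13 probes with a median of 0.47, 10 above 0 and 3 below. Myosin (fast) heavy chain (29-63), a contractile protein, read 11.56, 11.52, 10.55 and 11.10 on captive arrays, against 8.50, 10.00 and 11.47 at the lowest, median and highest wild array (1.29 ± 0.46 SE, adjusted p = 0.172). The muscle list's mean level ran from 9.65 to 10.7 over captive and from 8.57 to 11.5 over wild arrays, so the wild range held the captive one. Hemocyte transglutaminase, the clotting enzyme of the blood, had a median of 0.42 over 3 probes, and protein disulfide isomerase, a folding enzyme of the secretory pathway, -0.41 over 3. Ribosome and protein turnover genes (10 probes, 0.12), mitochondrial NADH:ubiquinone oxidoreductase (3 probes, 0.07) and methyl farnesoate and ecdysteroid genes (15 probes, 0.05) had 0 calls over both phases. Cathepsins and other proteases (22 probes, 0.14) had 1 call, the dim cathepsin B-like probe. Ovarian genes served as markers of foreign tissue: 20 probes of cortical rod, egg envelope and yolk genes had a median of -0.04. They exceeded the level in 5% of captive and 12.9% of wild readings, beside 24.9% and 31.0% over all probes. The vertebrate-derived probes that set the level exceed it in 12.5% of readings in both groups by definition. Whether the ovarian readings above the level were non-specific was not tested.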

How the data were processed

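Cy5-labelled amplified RNA of 16 eyestalk samples was hybridised alone to arrays of 2240 probes of 34 to 40 bases for 921 targets. Per the file headers, the deposited spots hold a foreground mean intensity, not logged, and have no background column. The authors' value table held the same numbers (85082 values of 2239 probes equal within 0.01). For scanner and image settings, the sources used here give nothing, and depth has no counterpart on arrays, where the number of arrays limits precision.

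The 16 arrays were corrected together by normexp (offset 50), logged to base 2 and quantile-normalised. Probes were fitted with limma 3.58.1 in R 4.3.3, with origin and phase as terms for the comparison over both phases, and 4 origin by phase means for the others. P-values were adjusted by Benjamini-Hochberg over 2240 probes and called under 0.05. They measure the spread between arrays. Where every array of the dimmer group was under the non-specific level, a fold is "at least": the dim side is then taken as that level, or as the probe's own value where higher.

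Named in the text are called probes with a gene name, up to 5 called unnamed probes of largest change in each direction that were above the level on all arrays of the brighter origin (1 higher and 2 lower met this), and probes of hormone, photoreceptor and serotonin lists. Added after values were seen are the probes called within a phase or against the shared scan name, those that fell between wild phases, further probes of all these targets, and examples from other lists. The files name 244 probes of 68 targets. The 12 lists are word patterns on those names. Members and lists were chosen with earlier results of these data known. Sequences are those of the deposited probe annotation, and no genome was used. The fitting code was tested on simulated data. Alternatives changed background correction, normalisation, foreground median, filter, slide block, wild arrays used, each array left out, and, chosen after seeing the data, scan name and array position.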

Additional observations from a re-analysis of the deposited data

Results flagged for a closer look

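Values singled out here stand apart from the rest of their group of 4 or 6 arrays, by a gap to the nearest other array that is a large part of the group's range. Of 186 groups examined, 26 (14%) did so. A rate of about 1 in 20 would hold for independent, normally spread replicates. These groups mix stages, and many of the probes were called in the same arrays, so that rate is no measure of chance here. Levels are log2 normalised intensities, and no explanation was tested.

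Among captive arrays, the preablation array stood high for PmSGP-II precursor (312-345 at 11.9, 43-77 at 9.88), Plate-C-F12 (130-165, 7.06) and plateB-E12 (31-65, 7.14), and low for Ribosomal protein L18 (57-91, 9.87) and E-C4 (355-389, 6.73). The captive elongated cortical rod array stood high for F-D12 (105-144, 7.68) and plateB-F4 (49-83, 8.31), and the captive postablation previtellogenic array for HPA-N-S01-0723-LF (353-387, 8.5).

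Among wild previtellogenic arrays the second 24 h replicate, the one with the captive scan name, stood apart most often. It was high for the sinus gland peptides PmSGP-IV precursor (313-346, 12.2), PmSGP-II precursor (43-77, 10.6), PmSGP-III precursor (80-114, 12.6) and mandibular organ inhibiting hormone (883-917, 12.6), and for broad complex isoform Z1 (1771-1805, 10.5), Dynactin (105-139, 9.99), HPA-N-S01-0306-LF (355-388, 11.6) and plateA-F10 (489-523, 9.71). It was low for plateB-H1 (307-341, 11.9) and arginine kinase (305-339, 9.53). The second 2 h replicate was low for Plate-C-F12 (130-165, 6.13).

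Among wild vitellogenic arrays the second vitellogenic replicate was low for plateC-A1 (45-79, 8.99) and the 40S ribosomal protein (217-250, 8.89) and high for PmSGP-V precursor (9-43, 10.9). The first elongated cortical rod replicate was high for B-F6 (39-74, 7.73) and low for cathepsin B-like proteinase (439-473, 5.72). The first round cortical rod replicate had the largest share of probes above the non-specific level in its phase, 34.6%.

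The captive minus wild difference changed between phases for Plate-B-D2 (113-147), by 4.34 on the log2 scale, as the interaction term tested it.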

How the results depend on the processing

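The count of 13 probes called over both phases moved with most alternatives. It was 0 with each array scaled to 1 median, 0 with slide as a random block, 0 with wild arrays of matching stages and stage in place of phase, 3 after a filter to probes above the level on at least 4 arrays, 3 against the wild arrays of the shared scan name, 20 from the foreground median, 51 by the methods' t-test, 147 against wild slide 4 and 87 against wild slide 5. Alternatives chosen after seeing the data gave 195 with scan name by array position as a block and 35 against the shared scan name with a position block in place of phase. With scan name as a covariate, also chosen after seeing the data, 9 probes were called, 1 higher in captive eyestalk and 8 lower. Of these 9, 2 were among the 13. Leaving out 1 array gave 0 (without the captive vitellogenic array) to 25 (without the second wild 24 h replicate), and stayed within 1.5 times of 13 only without the first wild preablation or the second wild vitellogenic replicate. In the previtellogenic phase, in place of 16 calls, there were 5 with median scaling, all lower and 3 of them among the 16, 1 with the slide block, 2 by the methods' t-test, 0 of them among the 16, and 1 to 195 with 1 array left out. The 0 vitellogenic calls became 0 to 2 with 1 array left out. The single interaction call became 0 with median scaling and 0 without background correction, and 0 to 3 with 1 array left out. The difference in the share of probes above the level, -6.12 percentage points, was -1.40 (exact permutation p = 0.502) with the median of the vertebrate-derived probes as the level, and -7.90 to -5.24 with 1 array left out (exact permutation p = 0.0044 to 0.0659). For these counts the cause was not tested. All 13 called probes kept their sign in every setting. Of the values of single probes under alternatives, 393 called as reported lost the call, and 0 called values changed sign. Counted as unchanged were 1318, called values that kept sign and call and uncalled values that moved by less than the probe's pooled SD. Uncalled values in that count could change sign, as for PmSGP-III precursor (80-114), which ran from -0.90 to 0.90. A further 13 uncalled values gained a call in the same direction, and 32 moved by more than the SD. No paired analysis was possible because all captive arrays carry replicate number 1 and wild arrays numbers 1 and 2, so the groups share 1 number. The position blocks above follow slide position, not a pairing in the labels. On arrays, signal over the non-specific level limits what can be read: 52.8% of probes exceeded it on no array.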

Other observations

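Exoskeletal protein, a cuticle component, was chosen after its values were seen. Probe 135-169 read 13.33, 13.95, 11.83 and 8.10 on captive arrays from preablation to the elongated cortical rod stage, against 8.10 to 13.45 on wild arrays, a difference of 1.73 ± 1.26 SE that was not called. Probe 313-347 read 9.84, 12.84, 11.81 and 6.69 on captive and 6.09 to 12.38 on wild arrays, and differed by 1.68. Among the captive arrays, the elongated cortical rod array was the lowest at both probes.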
